A study of Mus musculus with 56 samples.

Results

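The 9 genes described here are those through which mouse liver makes, shapes and breaks down glycogen, measured by RNA-seq in hypothyroid and hyperthyroid animals. They were chosen by name, as the first listed transcript of Gys2, Ugp2, Gyg, Gbe1, Ppp1r3b, Ppp1r3c, Pygl, Phka2 and Phkb, and are 9 of the 23813 genes in the deposited table. The study asked how T3 (triiodothyronine, the active thyroid hormone) changes histone acetylation at liver enhancers and the expression of genes near them. All mice were male and were fed chow low in iodine to which propylthiouracil (PTU), a blocker of thyroid hormone synthesis, had been added, and the L-NCOR1ΔID line was kept on a mixed C57BL/6;129S background. The labels of these RNA-seq samples give neither the strain background of the WT mice nor any age, and the study lists its L-NCOR1ΔID mice as younger on average than its WT mice, so that genotype, age and any difference in background cannot be told apart. WT mice given vehicle were hypothyroid (4 libraries), WT mice injected with T3 over the last days of the diet were hyperthyroid (4 libraries), and the third group was hypothyroid L-NCOR1ΔID mice (4 libraries). L-NCOR1ΔID mice make, in liver only, an NCOR1 corepressor without the domains that bind the thyroid hormone receptor (TR). RNA from L-NCOR1ΔID mice given T3, glycogen content and enzyme activity were not analysed here. The 4 libraries of a group are biological replicates per the labels.

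Glycogen is the branched glucose polymer in which hepatocytes store glucose after a meal. UDP-glucose pyrophosphorylase makes the activated glucose, glycogenin primes a new particle, glycogen synthase lengthens the chains, and branching enzyme adds the branch points. Between meals glycogen phosphorylase, switched on by phosphorylase kinase, removes glucose from the chain ends, while targeting subunits of protein phosphatase 1 hold that phosphatase on the particle, where it switches synthase on and phosphorylase off. Thyroid hormone excess is known for low liver glycogen.

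Levels are given in RPKM (the read count per kilobase of transcript, scaled to the depth of its library), which allows comparison between genes per length. Depth recovered from the steps between low RPKM values was 21220000 to 42360000 reads per library, with the hyperthyroid libraries lowest. Thrsp, a T3 target, was 4.90-fold higher in hyperthyroid than in hypothyroid WT (log2 fold change 2.29, SE 0.35, adjusted p = 0.00081), and Dio1, another T3 target, also rose with no overlap between the groups (log2 fold change 6.20, SE 1.02, adjusted p = 0.0012). The hypothyroid WT replicates 1 to 4 were uneven, with Dio1 at 0.719, 6.64, 57.7 and 8.98 RPKM. Thrsp was at 209, 490, 352 and 237 RPKM in the same libraries. Ncor1, the gene altered in L-NCOR1ΔID mice, was at 13.0 ± 0.844 RPKM in these mice and 14.7 ± 0.665 in hypothyroid WT (SD, n = 4 each), and the mutation removes only a part of it, so its total level checks little. The 6 hepatocyte markers summed to 19593 to 28128 RPKM in hyperthyroid WT and to 37741 to 49355 RPKM in hypothyroid WT, but singly 1 of the 6 was called higher with T3 and 2 lower, with a median log2 fold change of -0.13. The 5 Kupffer cell markers in the table summed to 82.9 to 136 RPKM in hyperthyroid WT, 29.1 to 39.3 in hypothyroid WT and 29.8 to 77.2 in L-NCOR1ΔID livers, and all 5 were called higher with T3. The 6 stellate cell markers summed to 73.8 to 83.6 RPKM in hyperthyroid WT, 44.6 to 62.5 in hypothyroid WT and 58.3 to 92.3 in L-NCOR1ΔID livers (3 called higher with T3), and with T3 2 of 5 endothelial and 1 of 4 leukocyte markers were called higher. Of 5 cholangiocyte markers 1 was called higher and 1 lower, and of 3 erythroid markers 2 were called higher and 1 lower. Among all genes tested with T3, 24.5% were called higher and 7.71% lower. One library stood apart in markers of another tissue, since 4 skeletal muscle markers summed to 22.3 RPKM in hypothyroid WT replicate 4, 5.93 in L-NCOR1ΔID replicate 1 and at most 0.538 in the other libraries. The fold changes of the 9 genes, and of the further genes called, were also computed without each library in turn.

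With T3, mRNA of the synthesis and targeting genes Gys2, Ugp2 and Ppp1r3c fell and mRNA of the phosphorylase Pygl rose. A gene was called at an adjusted p under 0.01 (limma on log2(RPKM + 0.1), Benjamini-Hochberg adjustment over 13941 genes tested). By this rule 5 of the 9 glycogen genes were called, against 32.2% of all genes tested. Of the 9, 3 were lower, against 7.71% of all genes tested, and 2 of 9 were higher, against 24.5% of all genes tested. Of the members, 3 were lower by more than 1 on the log2 scale, which 3.47% of all genes were, and 0 were higher by more than 1, which 8.28% of all genes were. The median log2 fold change was -0.01 over the 9 members and 0.23 over all genes tested. With libraries scaled by the median of gene ratios the median over all genes became 0.02, and the calls over all genes changed from 3413 higher and 1075 lower to 1774 higher (12.7%) and 1869 lower (13.4%). Of the members, 1 higher and 3 lower remained called after scaling, namely Pygl, Gys2, Ugp2 and Ppp1r3c, and scaled values are given below where they change a direction or a call. In bulk liver, fewer cells of a type and less RNA per cell cannot be told apart.

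**Figure D1:**
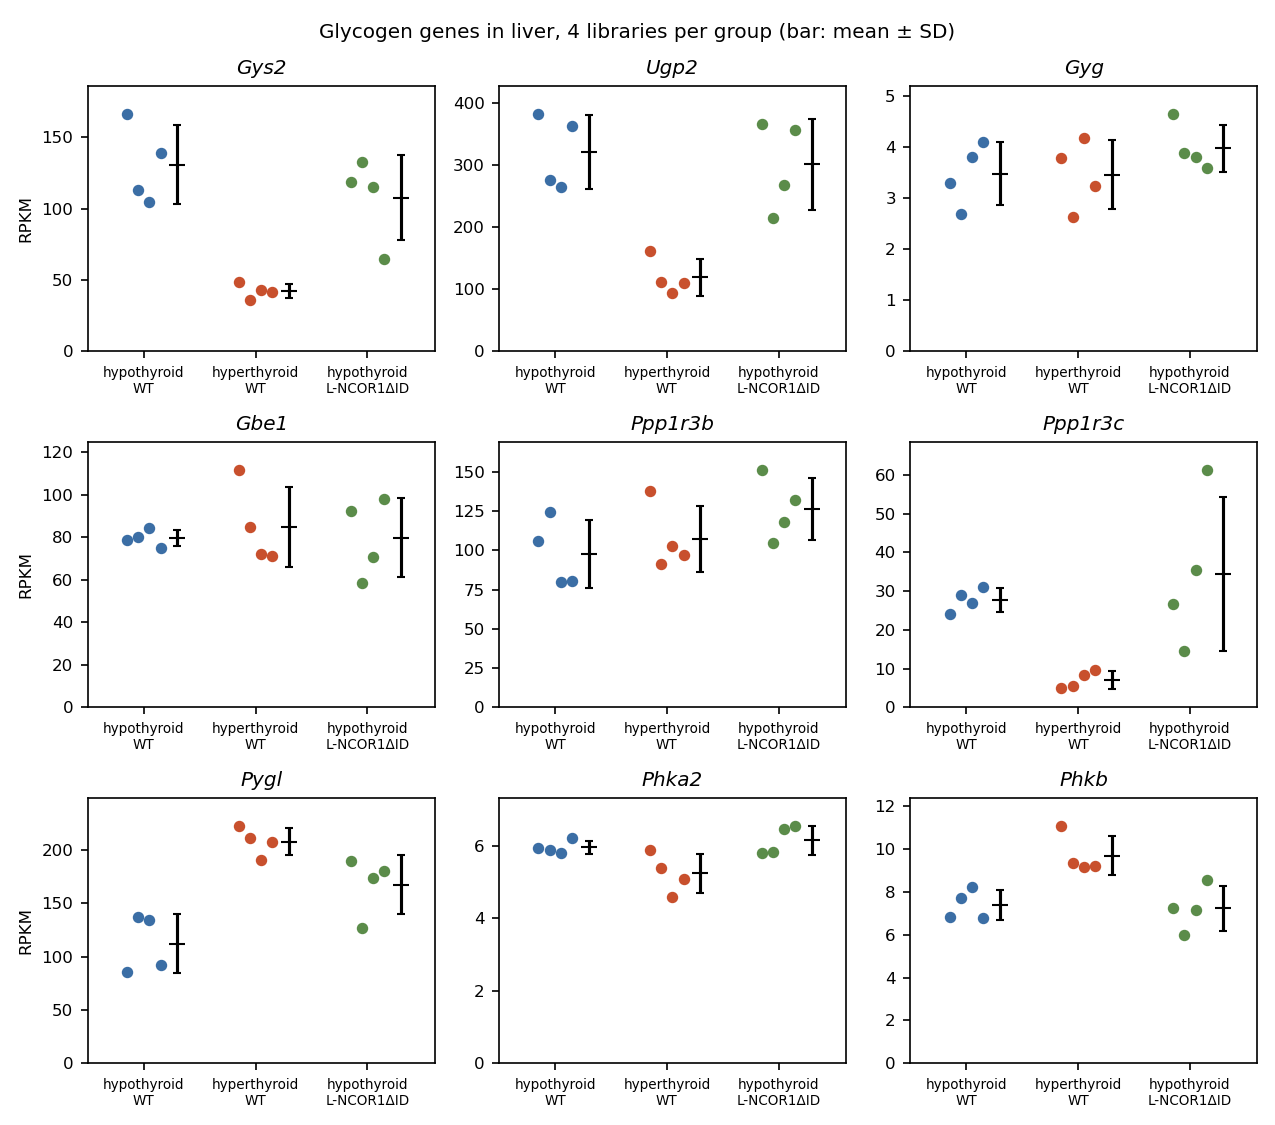
RPKM (y axis, linear from 0) of the 9 glycogen genes in each of the 12 libraries, by group, with mean ± SD beside the points (n = 4). The hyperthyroid WT points of Gys2, Ugp2 and Ppp1r3c lie below all hypothyroid WT points, and those of Pygl and Phkb lie above them.

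Gys2, the liver isoform of glycogen synthase, was at 166, 113, 105 and 139 RPKM in hypothyroid WT replicates 1 to 4 and at 48.4, 36.1, 43.2 and 41.9 RPKM in hyperthyroid WT replicates 1 to 4. The highest hyperthyroid library was below the lowest hypothyroid one, and the hyperthyroid libraries lay closer to each other. Mean levels were 131 ± 27.7 and 42.4 ± 5.06 RPKM (SD, n = 4 each), so Gys2 was 3.05-fold lower with T3 (log2 fold change -1.61, SE 0.15, adjusted p = 5.7e-05). Left-out libraries gave log2 fold changes of -1.70 to -1.48, and the call held in 8 of 8 such fits.

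Ugp2, which makes the UDP-glucose that synthase uses, had the highest level of the 9 genes in hypothyroid WT, with 382, 276, 265 and 362 RPKM. In hyperthyroid WT it was at 162, 112, 93.3 and 109.6 RPKM, with no overlap between the groups. The means were 321 ± 59.4 and 119 ± 29.8 RPKM, 2.71-fold lower with T3 (log2 fold change -1.44, SE 0.18, adjusted p = 0.00031, called in 8 of 8 fits with a library left out). The hypothyroid replicates 1 and 4, which were high for Gys2, were also high for Ugp2.

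The TR with its partner RXR is known to bind direct repeats of AGGTCA with a spacing of 4 bases (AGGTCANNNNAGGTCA). The acetylated region around the start of Ugp2 held 2 sequences on the plus strand that match at least 11 of the 12 half-site bases. These are shown because Ugp2 was alone in holding any, among the 7 members with a RefSeq promoter entry. They lie upstream of Ugp2, whose start is chr11:21271204 on the minus strand (mm9), at positions -1963 and -2131 relative to it. Capitals mark the half-sites.
Ugp2 chr11:21273160-21273175: AGGCCAgaagAGGTCA
Ugp2 chr11:21273328-21273343: AGGTCAggtgAGGTAA
Among 1195 deposited regions within 20% of the length of the Ugp2 region, 15.1% held at least 1 such match on either strand. A match is a description of the letters, and TR binding at these positions was not analysed here. Gyg, Gbe1, Ppp1r3c, Pygl, Phka2 and Phkb were searched in the same way with 0 matches in their regions, where 2.56% to 22.5% of regions of like length held one. Matches were listed only for members with a RefSeq promoter entry. Those in the regions of Gys2 and Ppp1r3b, which lack one, are therefore not reported here.

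Gyg encodes glycogenin, the primer of new particles. Its level was 3.29, 2.70, 3.81 and 4.11 RPKM in hypothyroid WT and 3.80, 2.64, 4.18 and 3.23 RPKM in hyperthyroid WT, the lowest of the 9 genes in both groups. The groups overlapped, and the log2 difference was -0.01 with a 95% interval of -0.40 to 0.38 (adjusted p = 0.97), or -0.23 after scaling (adjusted p = 0.27).

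Gbe1, the branching enzyme, was at 78.8, 80.1, 84.2 and 75.1 RPKM in hypothyroid WT and at 111, 84.7, 72.2 and 71.3 RPKM in hyperthyroid WT. The groups overlapped, and replicate 1 gave the highest hyperthyroid value. Its log2 fold change was 0.07 (95% interval -0.23 to 0.38, adjusted p = 0.68) and turned to -0.16 after scaling (adjusted p = 0.45) and to -0.07 without hyperthyroid replicate 1.

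Ppp1r3c encodes PTG, a subunit that brings protein phosphatase 1 and glycogen enzymes together on the particle. It was at 24.0, 28.9, 26.8 and 31.0 RPKM in hypothyroid WT and at 5.02, 5.38, 8.42 and 9.66 RPKM in hyperthyroid WT. The groups were far apart, since the highest hyperthyroid value was under 10 RPKM and the lowest hypothyroid value above 20. Ppp1r3c fell by 1.99 on the log2 scale (SE 0.20, adjusted p = 9.6e-05), 3.98-fold, which was the change of greatest size among the 9 genes.

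The 150 bases before the RefSeq start of Ppp1r3c (minus strand, mm9, chr19:36811095-36811244) are shown because they hold the E-box CACGTG, a sequence known to be read by factors such as USF, MYC and CLOCK. The letters come from the RefSeq promoter table of the later build and were found unchanged in mm9, and capitals mark the E-box.
Ppp1r3c: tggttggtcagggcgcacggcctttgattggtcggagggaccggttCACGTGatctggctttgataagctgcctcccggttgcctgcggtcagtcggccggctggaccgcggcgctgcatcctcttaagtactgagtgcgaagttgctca
CACGTG, which reads the same on both strands, occurs in 7.15% of 32851 promoters of 300 bases, and of the 7 members with an entry in that table it was also found in Gyg, 8 bases after the start.

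Ppp1r3b encodes GL, the targeting subunit most typical of liver. Its level was 106, 124, 79.9 and 80.5 RPKM in hypothyroid WT and 138, 91.1, 103 and 97.3 RPKM in hyperthyroid WT. The groups overlapped, and the difference did not pass the test (log2 fold change 0.14, 95% interval -0.25 to 0.53, adjusted p = 0.52, and -0.08 after scaling).

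Pygl, the liver glycogen phosphorylase, moved the other way. Hypothyroid WT livers had 85.3, 137, 134 and 92.2 RPKM and hyperthyroid WT livers 222, 211, 191 and 207 RPKM. Every hyperthyroid library was above every hypothyroid one, and the hypothyroid replicates 1 and 4, high for Gys2 and Ugp2, were the lower ones for Pygl. The means were 112 ± 27.3 and 208 ± 12.9 RPKM, a 1.89-fold rise (log2 fold change 0.92, SE 0.16, adjusted p = 0.0015). Scaling lowered it to 0.69 (adjusted p = 0.0087), and the call held in 8 of 8 fits with a library left out.

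The RefSeq start of Pygl lies 3805 bases inside the GENCODE start (minus strand), and the 150 bases before it (mm9, chr12:71328671-71328820) hold 1 copy of the half-site AGGTCA, here on the opposite strand as TGACCT, in capitals. It is shown as the one TR half-site in the promoters of the 7 members with an entry.
Pygl: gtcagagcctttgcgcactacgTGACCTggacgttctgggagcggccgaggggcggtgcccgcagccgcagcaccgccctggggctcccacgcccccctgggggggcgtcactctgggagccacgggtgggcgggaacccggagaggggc
AGGTCA on either strand occurs in 16.3% of all 32851 promoters.

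Phosphorylase kinase, which activates phosphorylase, is made of catalytic and regulatory subunits, of which Phka2 is the liver alpha and Phkb the beta subunit. Phkb was at 6.85, 7.72, 8.22 and 6.79 RPKM in hypothyroid WT and at 11.1, 9.34, 9.15 and 9.22 RPKM in hyperthyroid WT, with no overlap and with hyperthyroid replicate 1 above the rest. Its log2 fold change of 0.39 (SE 0.10, adjusted p = 0.0091) was only just past the threshold. The call was lost after scaling (0.16, adjusted p = 0.22) and in 7 of 8 fits with a library left out, that is without each hyperthyroid library and without hypothyroid replicates 1, 2 and 4 (0.32 to 0.41, adjusted p 0.014 to 0.028). Phka2 was at 5.96, 5.90, 5.80 and 6.22 RPKM in hypothyroid WT and at 5.89, 5.39, 4.59 and 5.10 RPKM in hyperthyroid WT. It was lower on average with overlapping groups and did not pass the test (log2 fold change -0.19, 95% interval -0.39 to 0.01, adjusted p = 0.11, and -0.41 after scaling, adjusted p = 0.014). The table lists 3 Phka2 transcripts with means of 5.70 to 6.17 RPKM in hypothyroid WT and 5.06 to 5.43 RPKM in hyperthyroid WT.

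The summed levels of Kupffer and stellate cell markers were higher, and that of the hepatocyte markers lower, in all 4 hyperthyroid libraries than in any hypothyroid WT library, as given above. Their part in the changes of Gys2, Ugp2, Ppp1r3c, Pygl and Phkb was not tested.

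**Figure D2:**
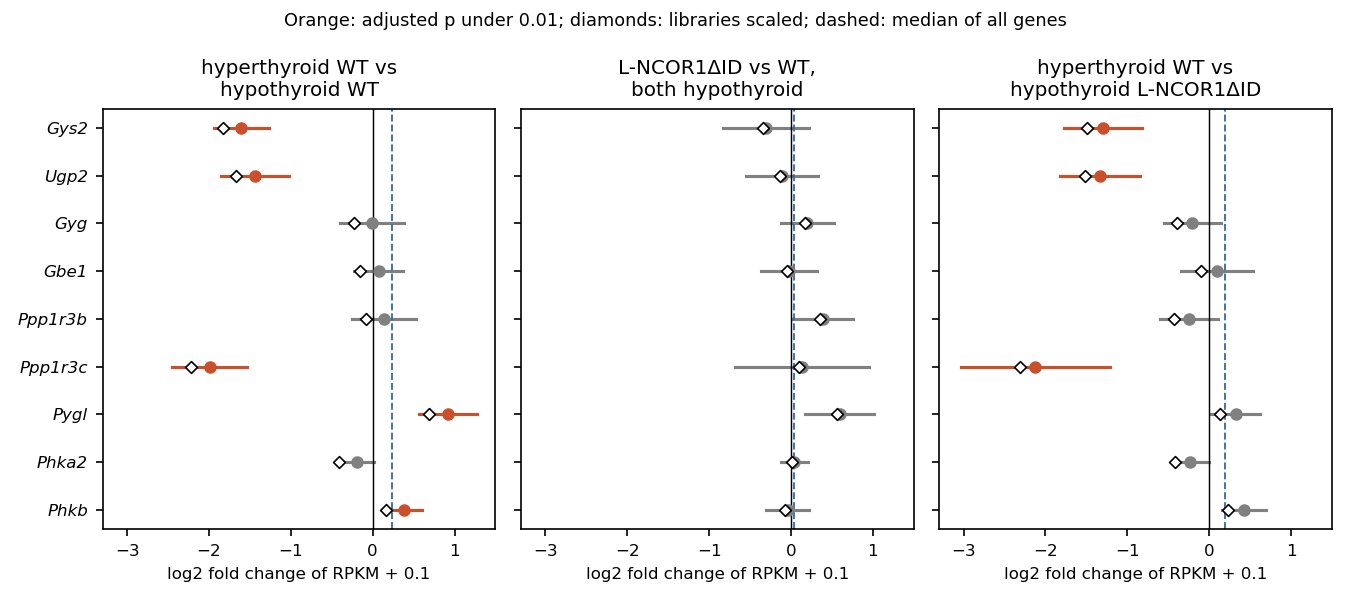
Log2 fold change of RPKM + 0.1 (x axis) of the 9 genes in 3 comparisons, with 95% intervals from limma as bars, values after scaling as diamonds and the median of all genes as a dashed line. Orange marks an adjusted p under 0.01, reached by 5 genes with T3, by 0 in L-NCOR1ΔID livers and by 3 between hyperthyroid WT and L-NCOR1ΔID livers.

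A ratio taken inside a library does not depend on how libraries are scaled. The Gys2 to Pygl ratio was 1.95, 0.824, 0.782 and 1.51 in hypothyroid WT replicates 1 to 4, 0.218, 0.171, 0.226 and 0.202 in hyperthyroid WT, and 0.628, 1.04, 0.663 and 0.359 in L-NCOR1ΔID livers. Synthase mRNA was thus near or above phosphorylase mRNA in hypothyroid WT and far below it in each hyperthyroid library, with the L-NCOR1ΔID libraries reaching from inside the hypothyroid WT range to below it but staying above all hyperthyroid ones. On the log2 scale the ratio was 0.23 ± 0.65, -2.30 ± 0.18 and -0.67 ± 0.63 in the same order (SD, n = 4 each). These ratios were not tested, since both genes had already been seen to move.

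The ratio of the targeting subunits, Ppp1r3c to Ppp1r3b, was 0.227 to 0.386 in hypothyroid WT, 0.0364 to 0.0993 in hyperthyroid WT and 0.138 to 0.462 in L-NCOR1ΔID livers. All hyperthyroid libraries lay below all others.

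**Figure D3:**
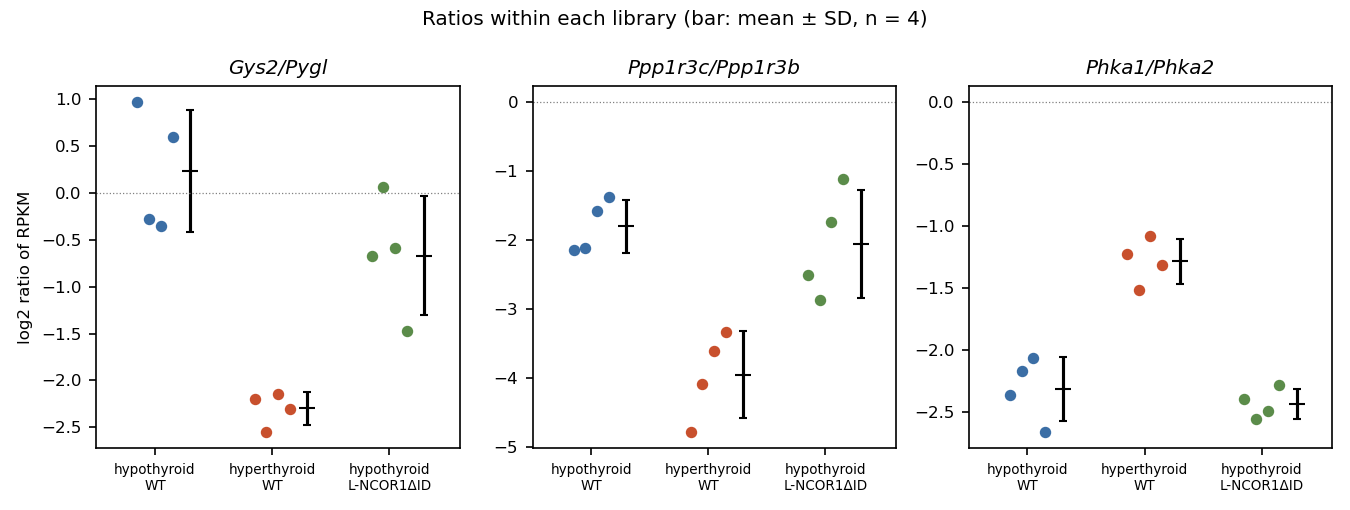
Log2 ratios of RPKM within each library (y axis) for Gys2 over Pygl, Ppp1r3c over Ppp1r3b and Phka1 over Phka2, by group, with mean ± SD (n = 4). The hyperthyroid WT points lie below all others in the first and second panel and above all others in the third.

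The L-NCOR1ΔID comparison asks which genes change in hypothyroid liver when NCOR1 cannot bind TR. The paper proposes that the deleted domains may also serve to bring NCOR1 to regulators besides TR. At an adjusted p under 0.01, 0 of the 9 glycogen genes were called by limma, and 1.27% of 13790 genes tested were. At an unadjusted p under 0.05 there were 2 members, Pygl and Ppp1r3b, against 20.5% of all genes. The hypothyroid WT libraries are the same as in the T3 comparison, so the fold changes of these comparisons are not independent.

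Pygl was at 189.5, 127, 173 and 180.1 RPKM in L-NCOR1ΔID livers. Of these 3 were above all hypothyroid WT libraries, and replicate 2 fell inside their range. The log2 fold change was 0.59 (95% interval 0.17 to 1.02, adjusted p = 0.12), beside 0.92 with T3. Ppp1r3b was at 151, 105, 118 and 132 RPKM, overlapping with WT (0.39, 95% interval 0.01 to 0.76, adjusted p = 0.23).

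The genes that fell with T3 did not pass the test in L-NCOR1ΔID livers. Gys2 was at 119, 133, 115 and 64.7 RPKM, where replicate 4 was below every hypothyroid WT library and the others lay within their range (log2 fold change -0.31, 95% interval -0.83 to 0.22, adjusted p = 0.50). Without L-NCOR1ΔID replicate 4 the difference was -0.08. Ugp2 was at 365, 214, 268 and 357 RPKM (-0.11, 95% interval -0.55 to 0.34, adjusted p = 0.80). Ppp1r3c varied most, with 26.5, 14.4, 35.4 and 61.1 RPKM, on both sides of the hypothyroid WT range (0.13, 95% interval -0.69 to 0.95, adjusted p = 0.88), and turned to -0.21 without replicate 4. For these 3 genes the intervals leave room for changes in either direction.

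The other members were close to hypothyroid WT. Gyg was at 3.59 to 4.64 RPKM (log2 difference 0.20, adjusted p = 0.47), Gbe1 at 58.7 to 98.0 RPKM (-0.02, adjusted p = 0.95), Phka2 at 5.79 to 6.54 RPKM (0.04, adjusted p = 0.80) and Phkb at 5.99 to 8.54 RPKM (-0.04, adjusted p = 0.89). All of these groups overlapped. Gbe1 and Phkb changed sign when single libraries were left out.

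Hyperthyroid WT livers were also compared directly with hypothyroid L-NCOR1ΔID livers, that is, T3 given with NCOR1 intact against no T3 with an NCOR1 that cannot bind TR. Of 14017 genes tested, 21.2% were called, 15.5% higher and 5.7% lower in hyperthyroid WT. Among the 9 members 0 were higher and 3 were lower. Gys2 was 2.46-fold lower in hyperthyroid WT (log2 fold change -1.30, SE 0.21, adjusted p = 0.0017) and Ugp2 2.52-fold lower (-1.33, SE 0.21, adjusted p = 0.0017), both called in 8 of 8 fits with a library left out. Ppp1r3c was 4.36-fold lower (-2.12, SE 0.40, adjusted p = 0.0037) with no overlap, but its call was lost without hyperthyroid replicate 1 (-1.98, adjusted p = 0.011), hyperthyroid replicate 2 (-2.01, adjusted p = 0.012) or L-NCOR1ΔID replicate 3 (-2.05, adjusted p = 0.014).

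Pygl did not pass the test between these groups, although all hyperthyroid libraries were above the highest L-NCOR1ΔID library (0.33, 95% interval 0.03 to 0.63, adjusted p = 0.082, and 0.14 after scaling, adjusted p = 0.52). Phkb had a log2 fold change of 0.42 (adjusted p = 0.021), which was past the threshold without L-NCOR1ΔID replicate 4 (0.51, adjusted p = 0.0095). Gyg (-0.21), Gbe1 (0.09), Ppp1r3b (-0.24) and Phka2 (-0.23) were not called, and Gbe1 turned to -0.10 after scaling.

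The order of the mRNA levels per length differed between the groups. In hypothyroid WT it ran from Ugp2 (mean 321 RPKM) through Gys2, Pygl, Ppp1r3b, Gbe1, Ppp1r3c, Phkb and Phka2 to Gyg (3.48 RPKM), and the neighbours from Gys2 to Gbe1 overlapped in their library ranges. In hyperthyroid WT Pygl (208 RPKM) stood first and apart from Ugp2 (119 RPKM), Gys2 came after Gbe1 and apart from it, and Ppp1r3c came after Phkb, whose range it overlapped. In L-NCOR1ΔID livers Ugp2 was again first, apart from Pygl, and the neighbours from Pygl to Ppp1r3c overlapped. These orders are descriptions without a test.

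A list of 28 further genes of glycogen and glucose-phosphate metabolism was read in the same fits. The symbols are those of the table, which uses Pgm1 and Pgm2 for phosphoglucomutases in an older sense than current RefSeq naming. With T3, 26 could be tested, of which 7 were higher (24.5% of all genes tested were) and 4 lower (7.71% of all genes), with a median log2 fold change of -0.21 against 0.23 for all genes. After scaling 2 were higher and 7 lower, against 12.7% and 13.4% of all genes, and the list median was -0.43 against 0.02. In L-NCOR1ΔID livers 0 of 25 were called by limma and 5 had an unadjusted p under 0.05, against 20.5% of all genes. Between hyperthyroid WT and L-NCOR1ΔID livers 4 of 26 were higher, among them Pgm1, Phka1 and Gsk3a, against 15.5% of all genes. Lower were 4 (Pgm2, Gckr, Ppp1r3e and Ppp1r3g), against 5.7% of all genes. After scaling 1 of 26 was higher and 7 were lower, against 1073 higher and 1257 lower of all 14017 genes tested (16.6% called). Scaling ended the calls of Pgm1 (0.35, adjusted p = 0.023) and Gsk3a (0.16, adjusted p = 0.12). Of these calls Pgm2, Phka1 and Ppp1r3g held in 8 of 8 fits with a library left out. Ppp1r3g, however, was at 0 to 0.116 RPKM in hyperthyroid WT and entered the test through the L-NCOR1ΔID libraries (0.547 to 1.82 RPKM). Its log2 fold change ranged from -5.02 to -1.09 over 8 other settings, so its size is uncertain. Pgm1 was lost whichever library was left out (0.46 to 0.56, adjusted p 0.013 to 0.027), and Gckr and Gsk3a were each lost in 7 of 8 fits, all but that without hyperthyroid replicate 1 (-0.48 to -0.41 and 0.32 to 0.38).

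On the synthesis side Pgm2, which interconverts glucose 1- and 6-phosphate, was at 142, 129, 127 and 135 RPKM in hypothyroid WT and 80.6, 80.6, 75.3 and 77.5 RPKM in hyperthyroid WT. The groups were well apart and tight (log2 fold change -0.76, SE 0.06, adjusted p = 3.6e-05), and Pgm2 was lower also against L-NCOR1ΔID livers (-0.62, adjusted p = 0.00032). Pgm1, a minor form here at 1.79 ± 0.071 RPKM in hypothyroid WT, rose to 2.75 ± 0.295 RPKM (SD, n = 4 each, log2 fold change 0.59, adjusted p = 0.0018). Gckr, a regulatory protein of hepatocytes, had a log2 fold change of -0.33 (adjusted p = 0.017) with T3, which passed after scaling (-0.55, adjusted p = 0.0045), and of -0.45 (adjusted p = 0.0055) against L-NCOR1ΔID livers.

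Among the genes of breakdown and glucose release, Slc2a2, the glucose transporter GLUT2 of the hepatocyte membrane, was at 158, 175, 171 and 166 RPKM in hypothyroid WT and 106, 88.5, 84.9 and 71.3 RPKM in hyperthyroid WT. It fell by 0.95 on the log2 scale (SE 0.11, adjusted p = 0.0002), and L-NCOR1ΔID livers had 90.5 to 142 RPKM, below all hypothyroid WT libraries without passing the test (-0.45, adjusted p = 0.11). G6pc, the glucose-6-phosphatase that completes glucose release, spread from 84.7 to 186 RPKM in hypothyroid WT and from 65.7 to 188 RPKM in hyperthyroid WT. Its log2 difference was 0.00 with a 95% interval of -0.79 to 0.79, which leaves room for changes in either direction.

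The isoforms known from other tissues were low. Gys1, the muscle synthase, was at 0.618 to 1.51 RPKM in all WT libraries and did not pass the test (log2 difference -0.36, adjusted p = 0.20). Phka1, the muscle form of the kinase alpha subunit, was at 1.16, 1.31, 1.38 and 0.982 RPKM in hypothyroid WT and at 2.52, 1.89, 2.17 and 2.05 RPKM in hyperthyroid WT, with no overlap (0.79, SE 0.14, adjusted p = 0.0018, and 0.58 after scaling, adjusted p = 0.0084). Its ratio to the liver form Phka2 was 0.158 to 0.238 in hypothyroid WT, 0.350 to 0.473 in hyperthyroid WT and 0.169 to 0.205 in L-NCOR1ΔID livers. The 4 skeletal muscle markers summed to at most 0.164 RPKM in the hyperthyroid libraries, where Kupffer and stellate cell marker sums were higher than in hypothyroid WT. The part of other cell types in the levels of these isoforms was not tested. Pygb, the brain phosphorylase, had means of 0.779 and 1.34 RPKM (0.70, adjusted p = 0.0072), a call lost after scaling (0.49, adjusted p = 0.024) and in 6 of 8 fits with a library left out, all but those without hypothyroid replicate 1 or hyperthyroid replicate 2 (0.56 to 0.76, adjusted p 0.010 to 0.023). Pygm, the muscle phosphorylase, was at 0.380, 0.406, 0.264 and 1.68 RPKM in hypothyroid WT, the last in the library with muscle markers, and at 0.268 to 0.446 RPKM in hyperthyroid WT (-0.48, adjusted p = 0.39). Phkg1, the muscle catalytic subunit, stayed at or below 0.202 RPKM.

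Of the targeting and control genes, Ppp1r3g, a further glycogen-targeting subunit, was at 5.71, 0.348, 0.653 and 2.93 RPKM in hypothyroid WT and at 0, 0.034, 0.020 and 0.116 RPKM in hyperthyroid WT. It was under 0.1 RPKM in 3 of 4 hyperthyroid libraries, 1 of which lists it at 0, and the hypothyroid replicates 1 and 4, high for Gys2, were again high. The fitted log2 fold change of -3.52 (SE 0.73, adjusted p = 0.0039) depends on the pseudocount, being -1.41 and not called with a pseudocount of 1 (adjusted p = 0.026) and -5.30 with one of 0.01. It was -2.88 without hypothyroid replicate 1 and -4.12 without hypothyroid replicate 2, both called, and was not called without hypothyroid replicate 4 or hyperthyroid replicate 1 or 3 (-3.45 to -3.20, adjusted p 0.011 to 0.014). Stbd1, a protein that tethers glycogen to membranes for breakdown in lysosomes, was at 59.3, 59.7, 67.6 and 71.6 RPKM in hypothyroid WT and at 10.4, 18.0, 41.3 and 25.3 RPKM in hyperthyroid WT. Its groups did not overlap (-1.61, SE 0.34, adjusted p = 0.0045), and its call was lost without any 1 hypothyroid library or without hyperthyroid replicate 2 (-1.65 to -1.53, adjusted p 0.011 to 0.015). Ppp1r3e, another targeting subunit, was at 0.258 to 1.24 RPKM in hyperthyroid WT and 2.27 to 2.83 RPKM in L-NCOR1ΔID livers (-1.70, adjusted p = 0.0068, called in 3 of 8 fits with a library left out, namely without hyperthyroid replicate 1, 2 or 4, and at -1.73 to -1.63 in the others). Against hypothyroid WT its log2 fold change with T3 was -1.13, which did not pass the test (adjusted p = 0.036).

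The phosphatase catalytic subunit Ppp1cb (0.39, adjusted p = 0.0019) and the synthase kinases Gsk3b (0.59, adjusted p = 0.0027) and Gsk3a (0.33, adjusted p = 0.0099) were higher with T3. None of these 3 calls held after scaling, which gave 0.16 for Ppp1cb (adjusted p = 0.045), 0.37 for Gsk3b (adjusted p = 0.016) and 0.11 for Gsk3a (adjusted p = 0.27). Gsk3a was called in 1 of 8 fits with a library left out, that without hypothyroid replicate 3 (0.27 to 0.37 in the others), while Ppp1cb and Gsk3b were called in 8 of 8.

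**Figure D4:**
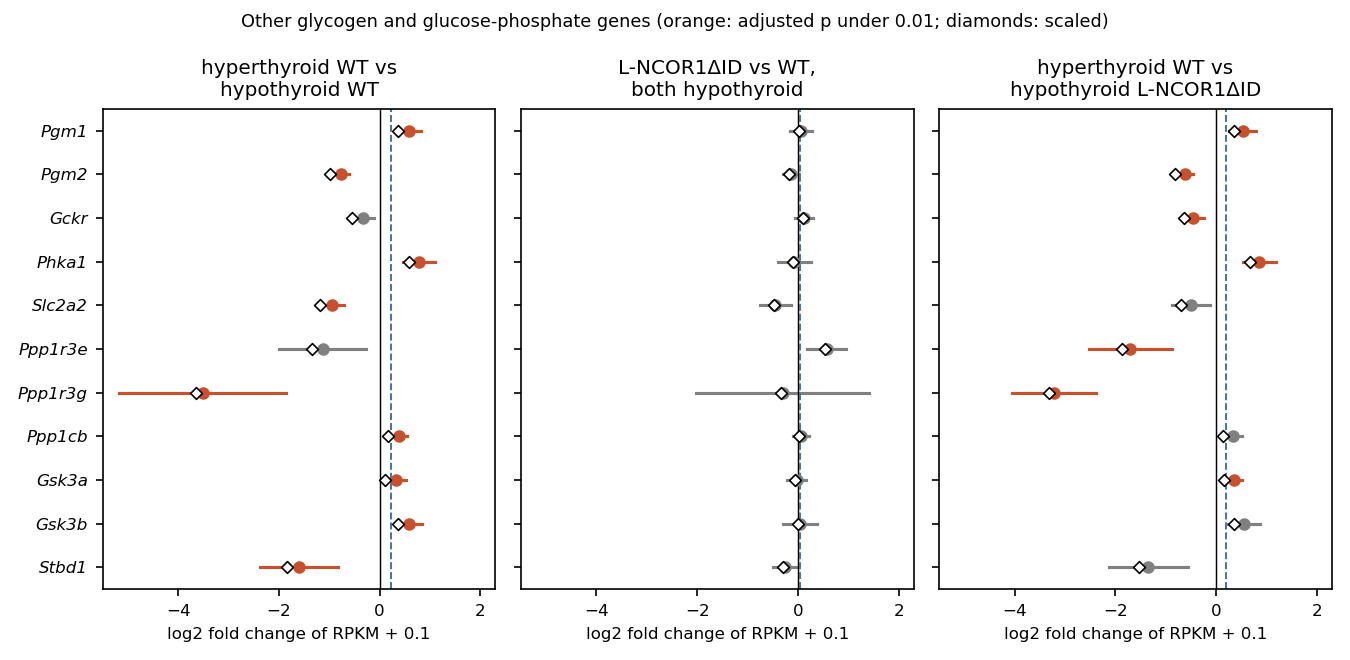
Log2 fold change of RPKM + 0.1 (x axis) of 11 further genes of glycogen and glucose-phosphate metabolism in the 3 comparisons, with 95% intervals, scaled values as diamonds and the median of all genes as a dashed line. Orange marks an adjusted p under 0.01. In the T3 panel Pgm2, Gckr, Slc2a2, Ppp1r3e, Ppp1r3g and Stbd1 lie below 0, and the diamonds of Gsk3a and Ppp1cb lie closer to 0 than their points.

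The genes most like Gys2 across the 12 libraries, by the root mean square difference of centred log2(RPKM + 0.1), were Fam53b (0.15), Ccdc57 (0.17), Galk1 (0.20), Idh2 (0.21) and Fam169b (0.21), of 10662 genes compared with a median difference of 0.87. Galk1, which phosphorylates galactose on its way into the hexose-phosphate pool, had means of 36.6, 14.3 and 33.9 RPKM in hypothyroid WT, hyperthyroid WT and L-NCOR1ΔID livers. For Pygl they were Lgals9, Itpk1, Mterf3, Pgs1 and Armt1 (0.17 to 0.19, median over all genes 0.45).

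The authors' list of 37200 regions with H3K9 or H3K27 acetylation merges both marks and conditions, so it gives where acetylation was found and not how much. The GENCODE starts of 9 of 9 glycogen genes lay inside a region, as did 86.0% of 12314 tested genes with a position. A region of at least 4 kb held the start of 7 of 9 members and of 42.8% of tested genes. The member regions had a median length of 9629 bases against 3988 for all tested genes whose start lay in one, and the shortest were those of Gyg (2243 bases) and Phkb (3871 bases). Pygl lay in the longest, chr12:71316846-71337190 (mm9, 20345 bases, longer than 96.4% of those of other tested genes), followed by Ppp1r3b (16827 bases) and Ugp2 (13031 bases). Ppp1r3c, within chr19:36803629-36813257, had 16 regions within 100 kb of its start, the most of the 9, and Gyg with 2 had the fewest. Of the 2 members called higher with T3, Pygl lay in a long region and Phkb in a short one, while the 3 called lower lay in regions of 9629 to 13031 bases.

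**Figure D5:**
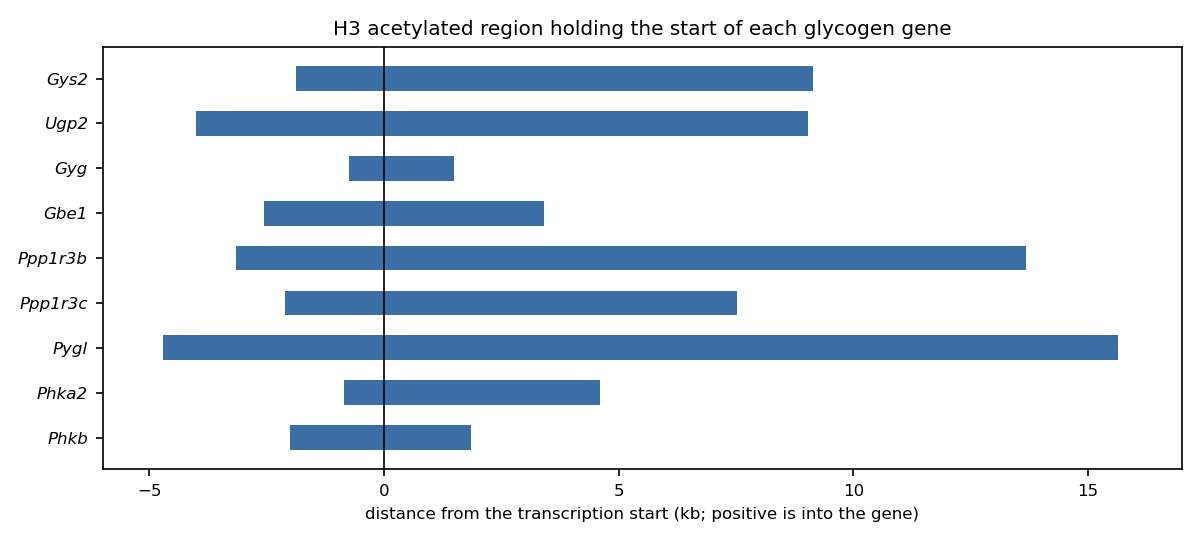
Extent of the H3 acetylated region that holds the transcription start of each of the 9 glycogen genes, as distance from the start in kb (x axis, positive into the gene). The bars of Pygl, Ppp1r3b and Ugp2 are the longest and that of Gyg is the shortest, and all reach both sides of the start.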

How the data were processed

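RNA-seq libraries of 12 mouse livers, of 56 samples in the series, and the list of acetylated regions were used; the other ChIP-seq samples were not analysed here. Per the labels, libraries had runs on more than one sequencer model. The authors aligned reads to mm9 with STAR, quantified RefSeq transcripts with HOMER and deposited RPKM values; the strand setting is not given in the sources used here. The authors called broad regions with HOMER and deposited merged coordinates. The authors' own differential test used read counts, not used here.

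The table holds 31370 transcripts, 1 of them unnamed and left out (0.00079% or less of a library's RPKM sum), and each gene was represented by its first transcript. Reads per library were recovered from RPKM steps (87.3% to 94.1% of the low values whole within 0.03 reads), and 0.1 RPKM corresponds to 2.12 to 4.24 reads per kb. A gene entered a comparison when 4 or more of its 8 libraries reached 0.1 RPKM, which all 9 members did. The values log2(RPKM + 0.1) of both groups were then fitted in R 4.3.3 by limma 3.58.1, allowing a trend of the variance, and p-values were adjusted by Benjamini-Hochberg. The procedure was tested on simulated data. These had the same dispersion for all genes and no general shift between groups, so they do not check the calls that scaling changed. Groups came from the labels, and p-values measure the spread between 4 livers per group.

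Named genes were the 9 members, genes of the 28-gene list called in any comparison (at most 12, of which 1 is not reported here), 5 isoforms of other tissues and the 5 genes most like Gys2 and Pygl. Members and lists were chosen with earlier results of these data known. Starts came from GENCODE M1 (mm9 build) and promoters from RefSeq, which has entries for 7 members and not for Gys2 and Ppp1r3b. The alternatives were pseudocounts of 1 and 0.01, filters, 12 libraries in 1 fit, a fit without the trend, a replicate block, libraries rescaled on their median gene ratio, a threshold of 0.05, the transcript with the highest mean and each library left out. Python 3.11.15, pandas 2.3.3, numpy 2.4.6 and matplotlib 3.10.9 were used.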

Additional observations from a re-analysis of the deposited data

Results flagged for a closer look

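In each group of 4 libraries, a library was singled out where its gap to the nearest other was above Dixon's critical value. Of 75 groups of values examined 4 were, and chance alone gives about 1 in 20. Phkb was at 11.1 RPKM in hyperthyroid WT replicate 1, above 9.15 to 9.34 RPKM in the others. Gckr was at 114 RPKM in hypothyroid WT replicate 4, above 95.3 to 98.2 RPKM. Ppp1r3e was at 2.83 RPKM in L-NCOR1ΔID replicate 1, above 2.27 to 2.34 RPKM. Pygm, the muscle phosphorylase, was at 1.68 RPKM in hypothyroid WT replicate 4, above 0.264 to 0.406 RPKM, and in that library the 4 skeletal muscle markers summed to 22.3 RPKM, against 0.011 to 0.123 RPKM in the other hypothyroid WT libraries.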

How the results depend on the processing

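Under 9 other settings and 8 left-out libraries per comparison, Gys2, Ugp2, Ppp1r3c and Pygl were called with T3 each time, 4 or 5 members were called at an adjusted p under 0.01, and 0 members in L-NCOR1ΔID livers. Requiring a log2 fold change above 1 in size left 3 with T3. An adjusted p under 0.05 gave 6880 genes with T3, 601 in L-NCOR1ΔID livers and 5407 between hyperthyroid WT and L-NCOR1ΔID livers, against 4488, 175 and 2975. With libraries left out the last 2 counts ranged from 67 to 187 and from 1651 to 2672. A replicate block gave 45 and 1642, and with it 4 members were called with T3, since Phkb was lost (0.39, adjusted p = 0.027). Replicate numbers were not treated as pairs, as same-numbered libraries correlated at -0.08 to 0.08 with T3 and at -0.21 to 0.27 in L-NCOR1ΔID livers against hypothyroid WT. Directions that turned belonged to members that were not called. Scaling gave Gbe1 -0.16 and Ppp1r3b -0.08 with T3, and Gbe1 -0.10 against L-NCOR1ΔID livers. Left-out libraries gave, with T3, Gyg -0.12 to 0.11 and Gbe1 -0.07 to 0.15, in L-NCOR1ΔID livers Ugp2 -0.21 to 0.04, Gbe1 -0.13 to 0.12, Ppp1r3c -0.21 to 0.48 and Phkb -0.12 to 0.05, and against L-NCOR1ΔID livers Gbe1 -0.04 to 0.20. The cause was not tested. With 4 libraries per group, the L-NCOR1ΔID intervals of Gys2 and Ppp1r3c are wide, and genes near 0.1 RPKM rest on few reads.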
